A study of Mus musculus with 8 samples.

Results

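The response to palmitate of adipocytes that also received A66 was measured by messenger RNA sequencing. It is the difference between 2 libraries of cells given palmitate together with A66 and 2 libraries of cells given A66 alone, 4 of the 8 libraries in the series, over all 14587 genes that passed a filter on low counts. The cells are 3T3-L1, an established mouse line of pre-adipocytes that were turned into adipocytes with insulin, dexamethasone, isobutylmethylxanthine and rosiglitazone, and every group shares this history. From day 8 of differentiation the cells were kept for 24 h with 2 uM A66, with 0.5 mM palmitate plus 2 uM A66, with 0.5 mM palmitate, or with neither (untreated). The palmitate was bound to bovine serum albumin (BSA), while the labels name no BSA for the A66 group, so that palmitate and its carrier cannot be told apart. The study's methods give another concentration for A66, with DMSO as the vehicle. 3T3-L1 is a single clonal line. The study's methods call the replicates of its adipocyte RNA-seq biological repeats, while the labels do not say whether they were separate cultures, so p-values measure the spread between these libraries.

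Palmitate is the main saturated fatty acid made by adipocytes and an abundant one in blood. Cells activate it to palmitoyl-CoA, after which it is stored in triglyceride, desaturated, oxidised in mitochondria or built into sphingolipids and phospholipids. A66 inhibits p110α, the class I PI3K catalytic subunit through which insulin acts in most cells. Sterol and fatty acid synthesis genes are driven by the SREBP transcription factors, which the endoplasmic reticulum (ER) releases when its membrane holds little cholesterol. Amino acid shortage and ER stress raise translation of ATF4, a factor that turns on amino acid synthesis and transport genes.

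The 4 libraries held between 46951518 and 51760732 counts. A level is given below as CPM (counts per 1000000 counts of the library) scaled with edgeR's TMM factors, and 3 counts in a library corresponded to between 0.0580 and 0.0639 CPM. Markers of adipocytes were present in all 4 libraries. Pparg, the master regulator of fat cell differentiation, stood at 323 and 314 CPM with A66 and at 300 and 311 CPM with palmitate plus A66. Several markers of preadipocytes and fibroblasts were present too, while Dlk1 had no count. Vim was at 1032 and 1045 CPM with A66 and at 1100 and 1050 CPM with palmitate plus A66. Pdgfrb was at 208 and 218 CPM and at 191 and 200 CPM in these groups. Of 10 skeletal muscle markers, Myod1, Myf5, Myh4 and Ckm had no count in the 4 libraries, and Myog, Pax7, Myh1 and Myh2 had 1 or 2 counts in all. Actn3 had 42 counts and Acta1, the skeletal muscle actin gene, 313. The macrophage markers Adgre1, Fcgr1, Mrc1 and Tyrobp had no count, Ptprc and Cx3cr1 had 1 each and Itgam 3. The others of that list are described below with Cd68. The share of counts from mitochondrially encoded genes ran from 10.8% to 11.8% in these libraries and was higher in both palmitate plus A66 libraries (11.4% and 11.8%) than in both A66 libraries. Its part in the results was not tested. A66 removes no transcript that could serve as a check of the labels. In bulk RNA, fewer cells of a type and less RNA per cell cannot be told apart.

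In A66-treated cells, palmitate changed many genes by a small amount. With edgeR's quasi-likelihood test and Benjamini-Hochberg adjustment, 398 of the 14587 genes differed at an adjusted p under 0.05 (2.73%). Of these, 213 were higher (1.46%) and 185 lower (1.27%), and their median absolute log2 fold change was 0.27. Only 36 of the 398 reached 1.5-fold, 25 of them higher and 11 lower. The median log2 fold change of all genes was 4e-04. When the counts were scaled by library size alone, 180 genes were higher and 266 lower, so the share of higher calls was 40.4% in place of 53.5%, with a median over all genes of -0.02. The 2 groups did not overlap for 3385 genes that were higher with palmitate (23.2%) and for 3407 that were lower (23.4%), so that separation of 2 libraries from 2 others was common. An exact two-sided permutation test of 2 libraries against 2 cannot go below p = 0.333, so none was run. Cells without A66 gave a smaller number of calls, 171 (1.17%), with 92 higher (0.631%) and 79 lower (0.542%).

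**Figure D1:**
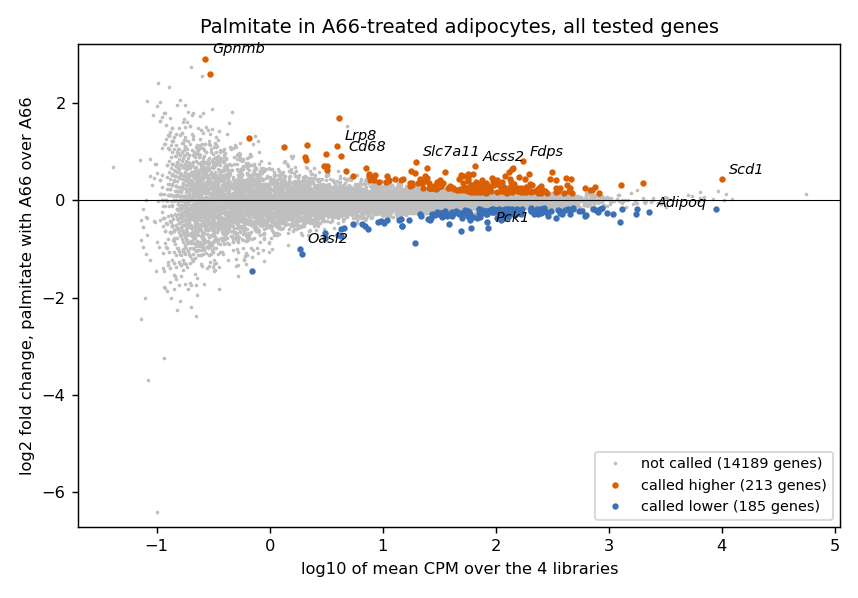
Log2 fold change of palmitate plus A66 over A66 (vertical axis) against the log10 of the mean CPM over the 4 libraries (horizontal axis) for the 14587 genes tested. Orange points are the 213 genes called higher and blue points the 185 called lower, and most called genes lie within 1.5-fold of no change.

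Cholesterol synthesis gave the most uniform response. All 24 members of the list of cholesterol synthesis and SREBP2 genes that were tested rose (adjusted p under 0.05), with a median log2 fold change of 0.46, against a background of 1.46% of genes called higher. Their fold changes ran from 0.17 to 0.81 on the log2 scale. Without A66, 21 of the same 24 were called higher (background 0.631%) and the median was 0.36. When any 1 of the 4 libraries of the contrast was left out, 19 or 20 of the 24 were still called, and the median lay between 0.45 and 0.47.

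The first steps of the pathway make mevalonate and isoprenoid units. Hmgcs1, which encodes HMG-CoA synthase, stood at 383 and 372 CPM with A66 and at 471 and 471 CPM with palmitate plus A66, a log2 fold change of 0.32 (SE 0.039, adjusted p = 1.62e-05, edgeR). Both palmitate libraries lay above both A66 libraries for this gene. Pmvk, which encodes phosphomevalonate kinase, was at 41.5 and 40.3 CPM with A66 and at 56.5 and 60.9 CPM with palmitate, a log2 fold change of 0.52 with A66 against 0.16 without, where it did not pass the test (edgeR adjusted p = 0.146). The difference of 0.36 between these effects did not pass either (edgeR adjusted p = 0.132). Fdps makes farnesyl diphosphate and had the smallest p of all members. It went from 124 and 127 CPM to 223 and 218 CPM, 1.75-fold (log2 0.81, SE 0.044, adjusted p = 1.29e-10, edgeR). It was the single gene that passed when a change of at least 1.5-fold was required.

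The steps that commit carbon to sterols rose to a like degree. Fdft1, squalene synthase, was at 105 and 107 CPM with A66 and at 159 and 159 CPM with palmitate (log2 fold change 0.59). Ctsb, at a mean of 609.9 CPM, overlaps 18.3% of the exonic bases of Fdft1 on the opposite strand, and its reads may be mixed in because the sources used here do not state how strand was handled. Sqle, the epoxidase that follows it, was at 159 and 159.9 CPM with A66 and at 235 and 232 CPM with palmitate (0.55). In both Fdft1 and Sqle, the libraries of a group lay close to each other and far from those of the other group. Cyp51, which removes a methyl group from lanosterol, went from 111 and 108 CPM to 168 and 173 CPM (0.64, SE 0.043, adjusted p = 1.79e-09, edgeR), and Msmo1, which acts on the next sterols, from 252 and 248 CPM to 378 and 373 CPM (0.59). The later enzyme Dhcr7, a sterol reductase, rose as well (0.43). Acat2, acetoacetyl-CoA thiolase, had the smallest change of the list, 0.17, and lost its call in 6 of 17 alternative settings.

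Regulators on the same list rose too. Insig1 encodes the ER protein that holds SREBP back when sterols are plentiful, and is itself an SREBP target. It was at 261 and 254 CPM with A66 and at 346 and 355 CPM with palmitate (0.45). Srebf2, the gene for SREBP2, was at 128 and 130.4 CPM with A66 and at 163 and 163 CPM with palmitate (0.34). Stard4, a cytosolic cholesterol carrier, had a log2 fold change of 0.41. Ebp, a sterol isomerase, had a log2 fold change of 0.24 with A66 and of 0.02 without, a difference that did not pass the test (edgeR adjusted p = 0.472).

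Promoters of these genes are shown because the members moved together. RefSeq promoter windows of 300 bases on GRCm38.p6, from 250 before to 50 after the start, were found for 17 of the 24 genes (20 windows). The letters CCAAT, the box bound by NF-Y, were searched on both strands and occurred in 16 of these windows (80.0%), compared with 37.4% of all 32851 windows. CACNCCAC, a core of the sterol regulatory element, occurred in 3 (15.0%), compared with 6.24% of all windows. A match is a description and does not show binding. The list was drawn up from known genes of sterol synthesis and SREBP2, and all tested members rose. These shares therefore describe the members of the list and say nothing of palmitate. In the windows of Cyp51 (chr5:4104648-4104947 on the reverse strand), Hmgcs1 (chr13:119690101-119690400 on the forward strand) and Insig1 (chr5:28071162-28071461 on the forward strand), written 5′ to 3′ along the gene, capitals mark matches to either motif on either strand.
Cyp51: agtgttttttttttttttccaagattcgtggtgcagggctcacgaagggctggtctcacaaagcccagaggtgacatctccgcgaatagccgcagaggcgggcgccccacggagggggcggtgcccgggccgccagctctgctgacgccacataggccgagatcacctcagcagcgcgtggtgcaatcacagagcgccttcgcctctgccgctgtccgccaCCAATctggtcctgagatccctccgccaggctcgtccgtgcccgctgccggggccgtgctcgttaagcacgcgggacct
Hmgcs1: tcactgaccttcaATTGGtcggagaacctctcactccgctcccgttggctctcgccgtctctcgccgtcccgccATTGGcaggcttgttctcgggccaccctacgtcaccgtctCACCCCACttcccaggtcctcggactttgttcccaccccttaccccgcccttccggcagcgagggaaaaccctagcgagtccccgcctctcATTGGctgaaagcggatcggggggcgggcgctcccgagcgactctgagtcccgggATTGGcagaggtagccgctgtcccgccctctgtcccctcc
Insig1: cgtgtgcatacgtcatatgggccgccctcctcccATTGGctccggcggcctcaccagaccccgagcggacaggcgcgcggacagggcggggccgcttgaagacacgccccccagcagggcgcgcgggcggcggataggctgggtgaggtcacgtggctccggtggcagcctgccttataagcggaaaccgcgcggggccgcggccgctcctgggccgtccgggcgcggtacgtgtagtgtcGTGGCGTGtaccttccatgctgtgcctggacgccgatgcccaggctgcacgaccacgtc
The Hmgcs1 window holds 4 CCAAT boxes and 1 CACNCCAC, the Insig1 window 1 of each, and the Cyp51 window 1 CCAAT box.

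Of 21 tested genes on the de novo lipogenesis list, 10 rose and 1 fell (background 1.46% higher and 1.27% lower), with a median log2 fold change of 0.19. Without A66 the counts were 8 and 1 (background 0.631% and 0.542%). Those that rose were 3 genes that supply acetyl-CoA and citrate, 4 desaturases, the elongase Elovl5 (0.27), and Pgd (0.25) and Me1 (0.19), whose enzymes make NADPH. Acss2, which makes acetyl-CoA from acetate, went from 51.8 and 48.7 CPM to 85.8 and 78.9 CPM, 1.64-fold (log2 0.71, SE 0.055, adjusted p = 2.12e-08, edgeR). Acly, which cuts cytosolic citrate, was at 394 and 401 CPM with A66 and at 538 and 538 CPM with palmitate (0.44). Slc25a1, the mitochondrial citrate carrier, had a log2 fold change of 0.35.

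The desaturases rose together. Fads2, the delta-6 desaturase, was at 108 and 114 CPM with A66 and at 179 and 172 CPM with palmitate (0.66, SE 0.043, adjusted p = 1.79e-09, edgeR). Fads1, the delta-5 desaturase, was at 291 and 291 CPM with A66 and at 387 and 397 CPM with palmitate (0.43). Scd1, the stearoyl-CoA desaturase that turns palmitoyl-CoA into palmitoleoyl-CoA, was at 9052 and 7911 CPM with A66 and at 10850.0 and 12201 CPM with palmitate (0.44, SE 0.059, adjusted p = 5.48e-05, edgeR). Its paralogue Scd2 was at 1761 and 1739 CPM with A66 and at 2226 and 2275 CPM with palmitate (0.36). The groups did not overlap for any of the 4 desaturases, as was so for 23.2% of all genes in this direction. Fatty acid synthase and the acetyl-CoA carboxylases did not pass the test, with log2 fold changes of -0.09 for Fasn, 0.00 for Acaca and -0.07 for Acacb, and neither did the elongases Elovl1 (0.19) and Elovl6 (0.17). Srebf1, the gene for the SREBP1 factor, was at -0.12 and did not pass either. Thrsp, a lipogenic gene of the liver and fat, fell from 166 and 140 CPM to 119 and 133 CPM (-0.28, adjusted p = 0.0083, edgeR). It lost its call in 4 of 17 alternative settings, between -0.40 and -0.16, and the list had no fall without A66 replicate 1, without palmitate plus A66 replicate 1 or with DESeq2.

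**Figure D2:**
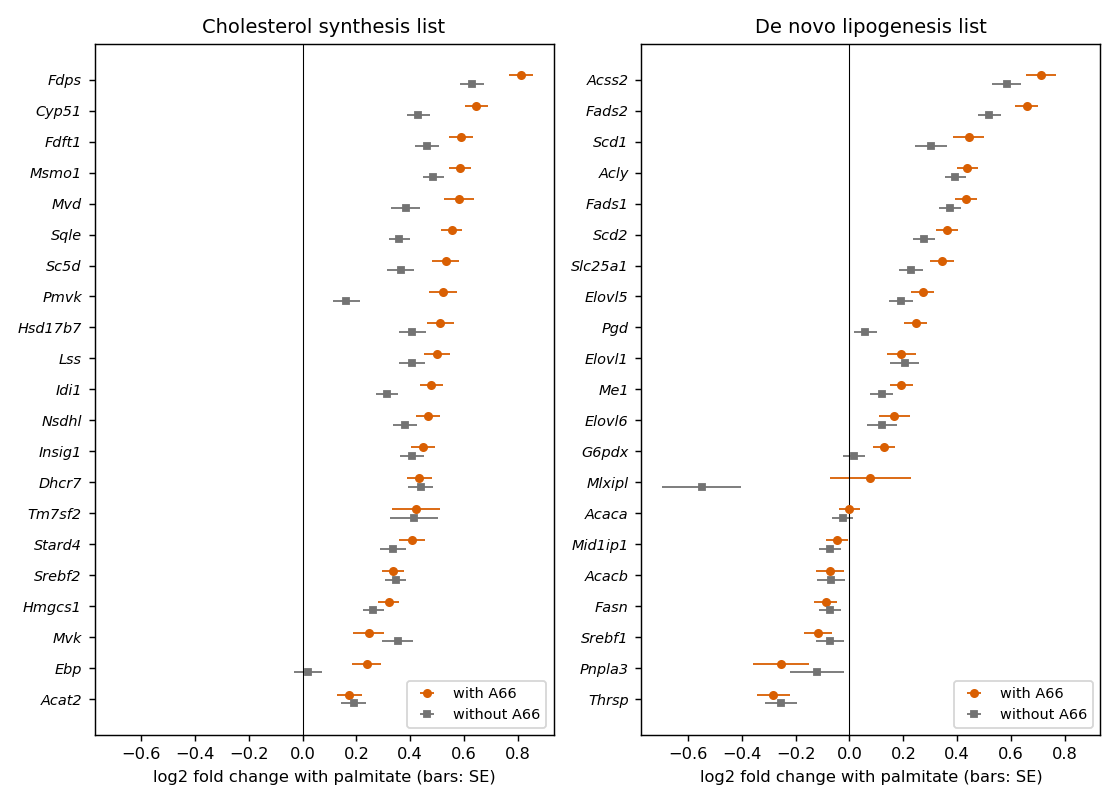
Log2 fold change with palmitate (horizontal axis, bars are SE) for each tested gene of the cholesterol synthesis list (left, 21 of the 24 genes) and the de novo lipogenesis list (right, 21 genes), with A66 in orange and without A66 in grey. Every cholesterol gene drawn lies above 0 with A66, from 0.17 for Acat2 to 0.81 for Fdps, whereas Fasn and Acaca lie at -0.09 and 0.00.

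Several genes that store and release triglyceride fell. On the list of triglyceride synthesis and lipid droplet genes, 10 of 25 tested members fell and none rose (background 1.27% lower), with a median log2 fold change of -0.17. Without A66, 3 fell (background 0.542%) and the median was -0.09, but no member passed the test of the difference between the effects. The 10 calls fell to 0 when A66 replicate 1 or palmitate plus A66 replicate 1 was left out, with medians of -0.15 and -0.14. Plin1, the perilipin that coats droplets and guards them from lipases, was at 517 and 486 CPM with A66 and at 396 and 428 CPM with palmitate (-0.28, SE 0.052, adjusted p = 0.00234, edgeR). Cidec, which fuses droplets, was at 715 and 653 CPM with A66 and at 519 and 580.1 CPM with palmitate (-0.32, SE 0.061, adjusted p = 0.00351, edgeR). The palmitate libraries were lower in both genes, and the 2 palmitate libraries differed by more from each other than they did for the sterol genes.

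Both arms of triglyceride turnover were represented. Among synthesis genes, Dgat2, the last acyltransferase, was at 185 and 166 CPM with A66 and at 141 and 154 CPM with palmitate (-0.25), and Gpat3, the first, had a log2 fold change of -0.20. An antisense gene at a mean of 12.7 CPM overlaps 30.0% of the exonic bases of Gpat3, with the same limit as for Fdft1. Among lipolysis genes, Pnpla2, which encodes the lipase ATGL, was at 1089 and 1016 CPM with A66 and at 880.1 and 889.8 CPM with palmitate (-0.25, adjusted p = 0.00637, edgeR). Its activator Abhd5 was at -0.18, its inhibitor G0s2 at -0.20, and Lipe, hormone-sensitive lipase, at -0.21, all of them calls. Lpl, the lipase that frees fatty acids from lipoproteins, was at 9462 and 9260 CPM with A66 and at 8164 and 8518 CPM with palmitate (-0.17, adjusted p = 0.0397, edgeR). Plin2, the perilipin of small droplets, was counted on the list of PPAR targets and rose from 233 and 234 CPM to 264 and 276 CPM (0.21, adjusted p = 0.00737, edgeR).

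Several genes that characterise the mature adipocyte fell. Of 27 tested genes of adipocyte identity and adipokines, 9 fell and none rose (background 1.27% lower), with a median of -0.17. Without A66, 1 was lower (background 0.542%) and 1 higher, with a median of -0.04. The test of the difference between the effects called no member of this list. Only 2 and 3 of the 9 calls were made without A66 replicate 1 and without palmitate plus A66 replicate 1. The spread between palmitate libraries was large here. The median level of the list relative to A66 was -0.25 on the log2 scale in palmitate plus A66 replicate 1 and -0.10 in replicate 2. Adipoq, the adiponectin gene, was at 2547 and 2413 CPM with A66 and at 2049 and 2137 CPM with palmitate (-0.24, SE 0.047, adjusted p = 0.00327, edgeR). Retn, the resistin gene, was at 331 and 309 CPM with A66 and at 265 and 249 CPM with palmitate (-0.32, SE 0.048, adjusted p = 0.000295, edgeR). Cfd, adipsin, was at 1259 and 1141 CPM with A66 and at 936 and 1051 CPM with palmitate (-0.27), with a gap between the groups that was smaller than the range within either group.

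Other members called lower were Agt (angiotensinogen, -0.28), Slc2a4 (the insulin-responsive glucose transporter GLUT4, -0.22), Adrb3 (the beta-3 adrenergic receptor, -0.38), Ppargc1b (a coactivator of mitochondrial genes, -0.41), Adig (-0.25) and Apoe (-0.32). The regulators Pparg (-0.06) and Cebpa (-0.26) did not pass the test. Fabp4, the fatty acid carrier of adipocytes, was at -0.07 and Lep, leptin, at -0.17, neither of them a call. Of 22 markers of preadipocytes and fibroblasts, 2 fell (Zfp423 at -0.30 and S100a4 at -0.21) and none rose (background 1.27% lower). Without A66 replicate 2 the list had 0 lower and 1 higher, and without any other of the 4 libraries 1 lower.

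Genes of PPAR and fatty acid handling did not rise as a group. Of 28 PPAR and fatty acid responsive genes, 1 rose (Plin2) and 3 fell (background 1.46% higher and 1.27% lower), and the median was -0.03. None of the 3 falls was called without A66 replicate 1 or without palmitate plus A66 replicate 1, and the list had no rise without either A66 library or without palmitate plus A66 replicate 2. The genes that fell were Pck1, which makes the glycerol backbone from small precursors, Gpd1, which makes it from glucose, and Aqp7, the glycerol channel. Pck1 was at 112 and 94.5 CPM with A66 and at 60.3 and 79.4 CPM with palmitate (-0.56, SE 0.11, adjusted p = 0.00442, edgeR). Gpd1 was at 1958 and 1846 CPM with A66 and at 1511 and 1617 CPM with palmitate (-0.28). Of 30 genes of fatty acid oxidation, 3 fell and none rose. The 3 calls became 1 without A66 replicate 1 or palmitate plus A66 replicate 1, and 7 with scaling by library size alone or in a fit of the 4 libraries. Acsl1, the main acyl-CoA synthetase of adipocytes, was at 1489 and 1406 CPM with A66 and at 1036 and 1098 CPM with palmitate, 0.737 of the A66 level (log2 -0.44, SE 0.047, adjusted p = 2.23e-06, edgeR). It fell without A66 too (-0.25). Hsd17b10 (-0.22) and Crat, carnitine acetyltransferase (-0.16), were the other calls.

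Nuclear genes for the respiratory chain had mostly small negative values. Of 74 tested genes, 72 had a negative log2 fold change and 11 were called lower (background 1.27%), with a median of -0.12. Without A66 none was called lower (background 0.542%) and the median was 0.02, but no gene passed the test of the difference between the effects. The fall of 11 calls went to 1 without A66 replicate 1 and to 4 without palmitate plus A66 replicate 1, and to 21 when the fit held the 4 libraries alone. Cox8b, the muscle and brown fat form of a cytochrome oxidase subunit, was at 19.2 and 16.0 CPM with A66 and at 11.9 and 12.7 CPM with palmitate (-0.52, SE 0.10, adjusted p = 0.00496, edgeR). The others were small subunits of complex I (Ndufb3, Ndufb7, Ndufb8 and Ndufb10), complex III (Uqcr10 and Uqcr11) and ATP synthase (Atp5e, Atp5j2, Atp5k and Atp5l), between -0.33 for Atp5e and -0.18 for Ndufb8. Many of these genes have processed pseudogenes that could share reads. None of the 13 mitochondrially encoded genes and none of the 22 genes of the TCA cycle was called in the main fit. The fit of the 4 libraries called 1 mitochondrially encoded gene higher and 1 lower, and 3 TCA cycle genes lower. In this contrast 82 cytosolic ribosomal protein genes had a median of -0.04 and 69 of them were negative, with 1 call, Rpl36 (-0.23). The list had no call without A66 replicate 1 or palmitate plus A66 replicate 1, 2 without palmitate plus A66 replicate 2, and 4 in the fit of the 4 libraries. Without A66, 79 of the 82 were positive, with a median of 0.10 and no call. The share of counts from ribosomal protein genes was 3.12% and 3.12% with A66 and 3.07% and 2.93% with palmitate plus A66.

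**Figure D3:**
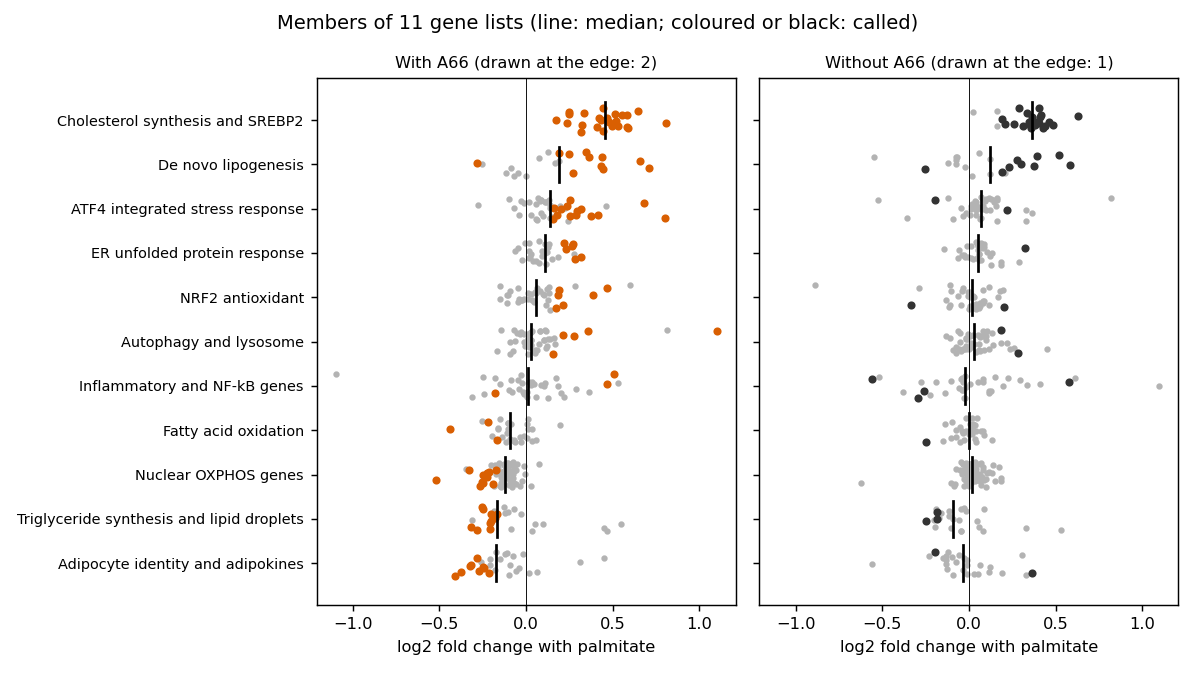
Log2 fold change with palmitate (horizontal axis) of every tested member of 11 gene lists (rows), with A66 on the left and without A66 on the right. Coloured or black points are genes called at an adjusted p under 0.05, grey points are not called, black lines are list medians, and values past the edge are drawn at it. With A66 the cholesterol list has a median of 0.46 and the adipocyte list one of -0.17.

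Part of the ATF4 programme rose in A66-treated cells given palmitate. On the ATF4 list, 14 of 42 tested members rose and none fell (background 1.46% higher), with a median of 0.14, and 36 of the 42 had a positive value. Without A66, 1 rose and 1 fell (background 0.631% and 0.542%) and the median was 0.07. The test of the difference between the effects called no ATF4 list member. Leaving out A66 replicate 1 or palmitate plus A66 replicate 1 left 6 and 8 calls. Atf4 itself was at 306 and 321 CPM with A66 and at 376 and 372 CPM with palmitate (0.25, SE 0.041, adjusted p = 0.000579, edgeR). Atf3, a stress-induced factor downstream of it, was at 19.1 and 18.8 CPM with A66 and at 31.4 and 29.3 CPM with palmitate, 1.60-fold (adjusted p = 0.000171, edgeR). For both factors the groups were clearly apart.

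Slc7a11, the cystine importer, was at 14.4 and 14.4 CPM with A66 and at 26.4 and 23.7 CPM with palmitate, 1.74-fold (log2 0.80, SE 0.10, adjusted p = 2.27e-05, edgeR). Asns, asparagine synthetase, was at 186 and 186 CPM with A66 and at 234 and 228 CPM with palmitate (0.32, SE 0.045, adjusted p = 0.00013, edgeR). Mthfd2, of mitochondrial one-carbon metabolism, was at 87.2 and 89.7 CPM with A66 and at 119 and 117 CPM with palmitate (0.42). Ppp1r15a encodes GADD34, which reverses the translation block, and rose by 0.37. Slc7a1 (0.29), Pycr1 (0.29), Shmt2 (0.20), Pck2 (0.18) and Slc3a2 (0.16) were also called, as were the tRNA synthetase genes Eprs, Wars and Gars. Ddit3, the CHOP gene (0.11), Trib3 (0.09), Chac1 (0.20), Psat1 (-0.01) and Phgdh (-0.03), which belong to the same programme, did not pass the test.

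Promoter windows were found for 13 of the 14 ATF4 list genes called higher (14 windows). TGATGNAA, a form of the C/EBP-ATF element that ATF4 binds, occurred on either strand in 6 of them (42.9%), compared with 3.97% of all windows. The 6 belong to Asns, Atf3, Gars, Pck2, Pycr1 and Slc7a11. The list was itself assembled from known targets of ATF4. The windows of the 3 with the largest log2 fold changes, Slc7a11 (chr3:50443564-50443863 on the reverse strand), Atf3 (chr1:191183284-191183583 on the reverse strand) and Asns (chr6:7693160-7693459 on the reverse strand), are given with the element in capitals.
Slc7a11: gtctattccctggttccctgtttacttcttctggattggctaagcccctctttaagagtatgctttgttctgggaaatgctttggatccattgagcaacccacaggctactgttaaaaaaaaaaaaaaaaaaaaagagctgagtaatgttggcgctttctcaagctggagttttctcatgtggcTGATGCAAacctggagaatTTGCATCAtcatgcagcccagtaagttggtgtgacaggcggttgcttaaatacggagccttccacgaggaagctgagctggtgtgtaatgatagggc
Atf3: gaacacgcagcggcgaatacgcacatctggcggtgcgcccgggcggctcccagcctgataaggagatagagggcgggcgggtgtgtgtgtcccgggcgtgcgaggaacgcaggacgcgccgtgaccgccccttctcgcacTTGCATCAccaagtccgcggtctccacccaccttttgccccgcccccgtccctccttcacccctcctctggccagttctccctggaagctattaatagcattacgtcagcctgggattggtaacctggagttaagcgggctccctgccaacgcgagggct
Asns: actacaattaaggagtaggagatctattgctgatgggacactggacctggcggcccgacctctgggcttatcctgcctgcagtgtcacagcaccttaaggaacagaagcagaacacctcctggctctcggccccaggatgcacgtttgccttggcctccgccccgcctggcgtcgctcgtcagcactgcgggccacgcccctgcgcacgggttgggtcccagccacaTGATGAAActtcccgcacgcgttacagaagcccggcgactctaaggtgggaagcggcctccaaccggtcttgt
Slc7a11 holds 2 matches, 1 on each strand, and Atf3 and Asns hold 1 each.

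Of 34 tested genes of the ER unfolded protein response, 6 rose and none fell (background 1.46% higher), with a median of 0.11 (0.05 without A66, where 1 rose). Each of the same 2 libraries left out took the 6 calls to 3. Hspa5, the chaperone BiP, was at 1138 and 1159.5 CPM with A66 and at 1449.9 and 1413 CPM with palmitate (0.32, SE 0.049, adjusted p = 0.000322, edgeR). Atf6, one of the sensors of misfolded protein, was at 130.3 and 128 CPM with A66 and at 158 and 152 CPM with palmitate (0.27). The others were Ero1l (an oxidase for disulphide bonds, 0.27), Hsp90b1 (0.22), Hyou1 (0.23) and Manf (0.28). Xbp1 (0.02), Dnajb9 (-0.06) and Herpud1 (0.07), targets of the IRE1 and ATF6 arms, did not pass the test, and nor did the chaperones and folding enzymes Canx (0.13), Calr (0.12), Pdia6 (0.12), Pdia4 (0.09), Pdia3 (0.09), Dnajb11 (0.03) and P4hb (-0.01). The ER stress response element, CCAAT and CCACG set 9 bases apart, occurred in both windows found for the 6 genes, those of Hspa5 and Hsp90b1, and in 0.119% of all windows. This list too was assembled from known genes of the response, and 2 windows are too few for a comparison, so the match is a description only. In the Hspa5 window (chr2:34771840-34772139 on the forward strand) capitals mark the element from its first to its last base.
Hspa5: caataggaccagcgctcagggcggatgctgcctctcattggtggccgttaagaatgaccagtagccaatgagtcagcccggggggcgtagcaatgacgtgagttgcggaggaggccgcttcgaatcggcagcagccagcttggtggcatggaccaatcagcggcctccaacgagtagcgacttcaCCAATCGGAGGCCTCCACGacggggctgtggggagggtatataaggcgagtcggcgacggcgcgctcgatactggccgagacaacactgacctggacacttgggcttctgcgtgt

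Hmox1 was the 1 gene that passed the edgeR test of the difference between the palmitate effects with and without A66. It encodes haem oxygenase 1, a target of the antioxidant factor NRF2. It was at 352 and 358 CPM with A66 and at 494 and 489 CPM with palmitate plus A66, a log2 fold change of 0.47 (SE 0.042, adjusted p = 2.13e-07, edgeR). Without A66 it was at 374 and 401 CPM in untreated cells and at 394 and 393 CPM with palmitate, a log2 fold change of 0.02 (edgeR adjusted p = 0.884). The difference between these effects was 0.45 (edgeR adjusted p = 0.00194), and this was the 1 call of 14587 genes in that test (0.00686%). A negative difference (effect with A66 minus effect without) was called for 0 genes. Its sign does not tell a smaller effect from a larger fall. At an unadjusted p under 0.05 the same test gave 1155 genes, and DESeq2 called 21, 8 positive and 13 negative. Negative calls also outnumbered positive ones with no filter on low counts (71 against 20) and with the replicate block (2 against 1). The count was 91 with no filter on low counts, 3 with the replicate block and 0 without A66 replicate 1, where Hmox1 had an adjusted p of 0.0675 (edgeR). Of 37 tested genes of the NRF2 list, 6 rose and none fell (background 1.46% higher). Besides Hmox1 these were Srxn1, sulfiredoxin, at 99.4 and 99.0 CPM with A66 and 133 and 127 CPM with palmitate (0.39), Sqstm1 (0.21), Abcc1 (0.19), Gclm (0.18) and Abcc4 (0.17). Nqo1 (0.03) and Gclc (0.12), other targets of the factor, did not pass the test. The calls went to 2 without A66 replicate 1 and to 3 without palmitate plus A66 replicate 1.

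**Figure D4:**
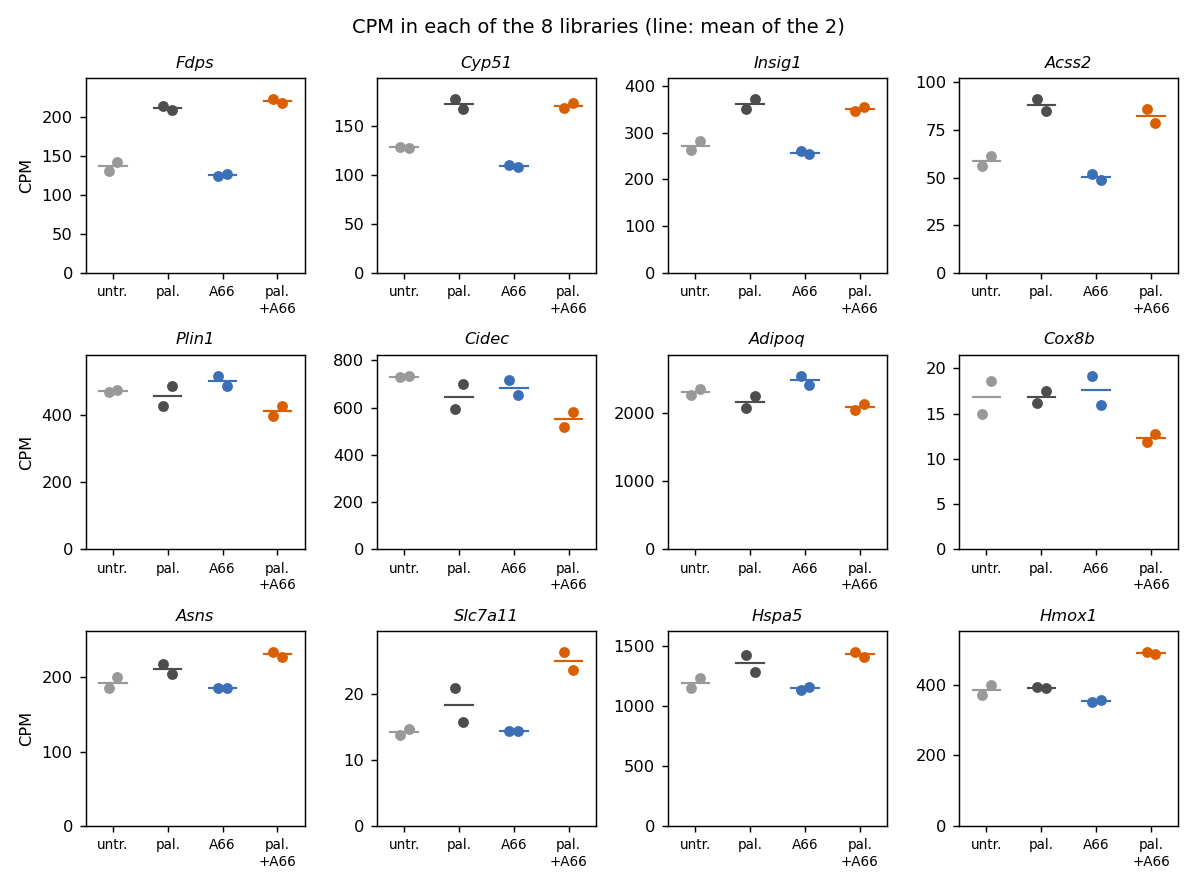
CPM (vertical axis, from 0) in each of the 8 libraries for 12 genes, by group (horizontal axis: untreated, palmitate, A66, palmitate plus A66). Points are libraries and lines the means of 2. Hmox1 with palmitate plus A66 sits at 494 and 489 CPM, above the other 6 libraries, which lie between 352 and 401 CPM.

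Effects with and without A66 had the same direction for most genes. The 2 contrasts share no library. Of the 398 genes called with A66, 368 (92.5%) had the same sign without it, compared with 8493 of all 14587 genes (58.2%). Their median absolute log2 fold change was 0.27 with A66 and 0.14 without. Such a contrast is partly built in, because genes were picked for their value with A66. Of the 171 genes called without A66, 152 (88.9%) had the same sign with A66, and their medians were 0.24 with and 0.27 without. Both calls were made for 94 genes, which is 23.6% of those called with A66 and 55.0% of those called without, and all 94 had 1 sign.

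**Figure D5:**
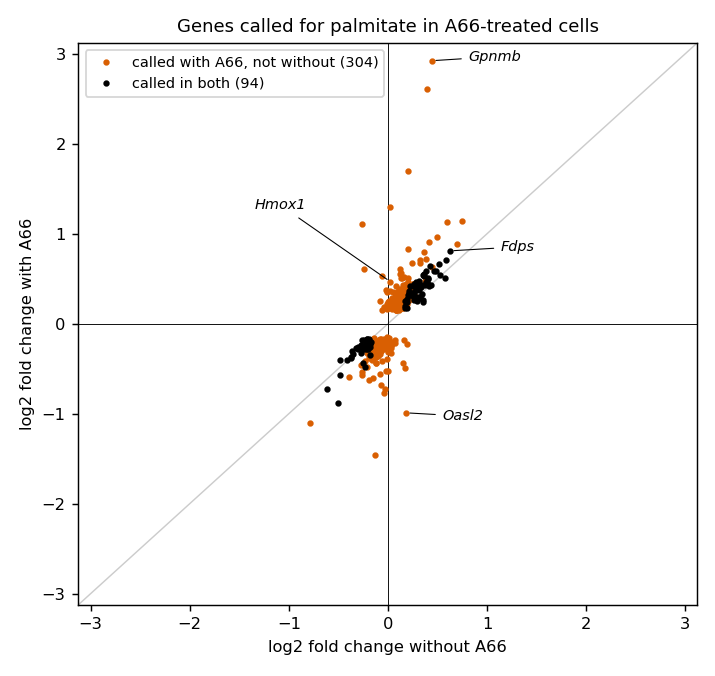
Log2 fold change with palmitate in A66-treated cells (vertical axis) against that in cells without A66 (horizontal axis) for the 398 genes called with A66. Black points are the 94 genes called in both contrasts, orange points the 304 called with A66 but not without, and the grey line marks equal values. Hmox1 lies at 0.47 with A66 and 0.02 without.

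The largest changes were in genes of low level. Among called genes with at least 1 CPM, the top rise was Gm26870, a non-coding transcript, at 1.60 and 2.28 CPM with A66 and 6.04 and 6.54 CPM with palmitate (3.25-fold, adjusted p = 0.000147, edgeR). Lrp8, a lipoprotein receptor, was at 1.95 and 3.03 CPM with A66 and at 6.12 and 4.70 CPM with palmitate (2.18-fold). Cd68, a lysosomal membrane protein used as a macrophage marker, was at 2.65 and 3.28 CPM with A66 and at 5.40 and 5.74 CPM with palmitate (1.88-fold, adjusted p = 0.0014, edgeR). Of the 12 macrophage markers on the list, 5 passed the filter, Cd68 alone was called (not without A66 replicate 1), and their summed level ran from 14.5 to 16.2 CPM with A66 and from 18.1 to 19.4 CPM with palmitate. Of the 5, 3 had positive and 2 negative values, and the background was 1.46% of genes called higher. Cd14 was at 8.27 and 9.25 CPM with A66 and at 10.1 and 10.2 CPM with palmitate. Lyz2 went the other way, from 3.03 and 3.18 CPM with A66 to 2.14 and 2.83 CPM with palmitate. Csf1r and Aif1 had 40 and 72 counts in the 4 libraries. The part of these markers in the results was not tested. Gramd2, Emb, Fam171b, Mlf1 and Gas2l3 completed the 8 largest rises, between 0.83 and 1.14 on the log2 scale. Of 17 alternative settings, Gas2l3 lost its call in 8 (0.52 to 1.19), Emb in 6, Mlf1 in 5, Fam171b in 4 and Gramd2 in 4 (0.70 to 1.74). Gpnmb, a lysosomal glycoprotein, lay below that level, with 3 and 3 counts in the A66 libraries and 21 and 26 in the palmitate plus A66 libraries.

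The largest falls included genes of signalling. Adcyap1r1, the receptor for the peptide PACAP, which raises cyclic AMP, went from 26.6 and 23.3 CPM to 14.2 and 13.0 CPM, 0.544 of the A66 level (log2 -0.88, SE 0.086, adjusted p = 6.85e-07, edgeR). It also fell without A66 (-0.51). Plcb2, a phospholipase C, was at 2.97 and 2.32 CPM with A66 and at 1.28 and 1.18 CPM with palmitate (-1.11). B3galt2, a galactosyltransferase, was at 62.5 and 57.1 CPM with A66 and at 38.1 and 39.6 CPM with palmitate (-0.62, adjusted p = 3.1e-05, edgeR). Oasl2, an interferon-induced gene, was at 2.18 and 2.73 CPM with A66 and at 1.40 and 1.06 CPM with palmitate (-0.99). Nat1, Itgal, Slc25a34 and Selenbp2 fell by 0.68 to 0.77 on the log2 scale. Oasl2, Slc25a34 and Selenbp2 lost their call in 5 of 17 settings each, and Plcb2, Nat1 and Itgal in 3 each.

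Of 36 genes of inflammation and NF-kB, 2 rose and 1 fell (background 1.46% and 1.27%). Their values ran from -1.22 to 0.53, 20 positive and 16 negative, with a median of 0.01. Ptgs2, cyclooxygenase 2, was at 6.91 and 6.82 CPM with A66 and at 10.2 and 8.81 CPM with palmitate (0.47), Ccl9, a chemokine, rose by 0.51, and C3, complement 3, fell by 0.18. None of the 3 calls was made without A66 replicate 1 or without palmitate plus A66 replicate 1. Of 39 interferon-stimulated genes, Oasl2 and Ifi27 (-0.25) fell and none rose (background 1.27% lower), with a median of -0.11. Without A66 the median was 0.15 and 2 rose (background 0.631%). The 2 falls became 0 without A66 replicate 2 or palmitate plus A66 replicate 1, and 1 without either of the other libraries of the contrast. No gene of the list passed the test of the difference between the effects.

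The counts of the remaining lists stand against a background of 1.46% of genes called higher and 1.27% lower. Sphingolipid and phospholipid synthesis had 1 higher and 4 lower of 36. The 4 became 0 without A66 replicate 1, 2 without A66 replicate 2 and 1 without either palmitate plus A66 library. Sptlc1, a subunit of the enzyme that joins palmitoyl-CoA to serine, was at 48.8 and 49.2 CPM with A66 and at 42.3 and 40.3 CPM with palmitate (-0.25, adjusted p = 0.00686, edgeR), Kdsr, the next enzyme of that path, was at -0.23, and Pcyt2, of phosphatidylethanolamine synthesis, rose by 0.34. Lpcat1 (-0.38) and Chpt1 (-0.21) were the other calls. Autophagy and lysosome genes had 5 higher of 49 (Npc1, which exports cholesterol from lysosomes, at 0.27, with Sqstm1, Gla, Gpnmb and Atp6v1a). Gpnmb, at 3 counts in each A66 library, passed the filter on low counts through other libraries, and the list had 4 higher of 48 when at least 10 counts were required in every library. None was called without A66 replicate 1 or without palmitate plus A66 replicate 1. Insulin signalling and FOXO targets had 2 higher (Tsc22d3, Pik3ip1) and 2 lower (Klf15, Ppp1r3c) of 39. With 1 library of the contrast left out, 0 or 1 were higher and 1 or 2 lower. Glucose uptake and glycolysis had 1 lower of 29, Pfkfb3 (-0.27), which also fell without A66 (-0.29). Cell cycle genes had 1 lower of 44, Cdkn2c (-0.44), which encodes the inhibitor p18. Clock genes had 1 higher of 21 (Bhlhe40), immediate early genes 1 lower of 25 (Egr1), apoptosis and p53 targets 1 higher (Tnfrsf10b) and 1 lower (Bcl2l11) of 27, matrix genes 1 lower of 47 (Timp3) and RNAs without a poly(A) tail 1 lower of 12 (Hist1h1c). Without A66 replicate 1, the glycolysis, clock, immediate early, apoptosis, matrix and poly(A)-free lists had no call, and the cell cycle list still had 1. No marker of endothelium or bone was called. Acta1, the muscle actin, was at 1.08 and 1.17 CPM with A66 and at 1.98 and 2.13 CPM with palmitate (0.87, SE 0.24), which did not pass the test (edgeR adjusted p = 0.0565). In 6 of 17 alternative settings 1 muscle marker was called higher. The summed level of the 2 muscle markers that passed the filter, Acta1 and Actn3, was 1.33 and 1.30 CPM with A66. It was 2.31 and 2.27 CPM with palmitate, and the part of these markers in the results was not tested.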

How the data were processed

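Poly(A) RNA from 3T3-L1 adipocytes was sequenced in 4 groups of 2 libraries, assigned from the treatment labels. Per the study's methods and the labels, the authors aligned reads to GRCm38 with TopHat2 2.0.11 and counted them per gene with HTSeq. The authors deposited raw counts without normalization, next to columns of their own DESeq2 comparison (fold changes and p-values), which were not used here. The annotation and strand setting of the counting are not given in the sources used here. Symbols came from GENCODE M21 for 42462 of 43629 listed genes, and promoter windows from RefSeq (GRCm38.p6).

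Counts were fitted in R 4.3.3 with edgeR 4.0.16 (TMM, filterByExpr with a minimum count of 10, quasi-likelihood tests, two-sided, Benjamini-Hochberg over all genes tested, threshold 0.05). One model of 4 group means over all 8 libraries gave palmitate plus A66 over A66, palmitate over untreated, and their difference. List medians are medians of log2 fold changes over tested members. The gene lists (30), the named genes and the motifs were chosen with earlier results of these data known. Named genes were the 8 largest rises and 8 largest falls among called genes with at least 1 CPM, the 3 members of each list with the smallest p, the 5 genes with the smallest p for the difference, and the 5 called genes of highest CPM. Not every gene taken by this rule is given in the text. Single values of 3 members of the cholesterol list are not reported here. Other list members, and Gpnmb, were named after their values were seen. Replicates within a group differed by more than counting noise (mean chi-square per gene 6.15 for A66 and 7.80 for palmitate plus A66), so no library was a duplicate. Limits of 3 counts cover counting error only. The script was tested on simulated counts. Alternatives were RLE factors, library size only, DESeq2 1.42.0, 2 other filters, the 4 libraries alone, a replicate block, a 1.5-fold minimum, removal of a transcript length trend, and leaving out each library.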

Additional observations from a re-analysis of the deposited data

Results flagged for a closer look

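The palmitate effect on Hmox1, the haem oxygenase 1 gene, differed between adipocytes with and without A66 by 0.45 on the log2 scale (0.47 with A66 and 0.02 without, edgeR adjusted p = 0.00194). Both palmitate plus A66 libraries stood above both A66 libraries. The difference lay between 0.39 and 0.50 over the alternatives that could be fitted to all 4 groups. Its adjusted p rose to 0.0675 without A66 replicate 1, and a minimum change of 1.5-fold gave an adjusted p of 1 (edgeR). The cause of the difference was not tested.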

How the results depend on the processing

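The count of 398 genes (213 higher, 185 lower) was 664 (334 and 330) with no filter on low counts, 689 (361 and 328) in a fit of the 4 libraries alone, and 1 (1 and 0) when a change of at least 1.5-fold was required. The cause was not tested. Leaving out 1 library at a time gave between 107 and 502 genes (78 to 266 higher, 29 to 239 lower), with 107 without A66 replicate 1 and 140 without palmitate plus A66 replicate 1. An arm of 1 library is then assumed to vary like the other groups. For palmitate without A66, the count of 171 became 396 with no filter, 0 with the 1.5-fold minimum, and between 71 and 245 with 1 library left out. For the difference between the effects, the count of 1 became 2 with library size only, 21 with DESeq2, 91 with no filter, 0 with the 1.5-fold minimum, and between 0 and 10 with 1 library left out. The replicate numbers are shared by the groups, but the labels do not pair them. The deviations of same-numbered A66 and palmitate plus A66 libraries correlated at -0.16 over 8962 genes. With the replicate block, 438 genes were called (396 of them in common with the 398), and the difference gave 3.

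With the 1.5-fold minimum the list calls were 1 for cholesterol synthesis and 0 for de novo lipogenesis, triglyceride and droplet genes, ATF4, ER, NRF2, adipocyte and nuclear OXPHOS genes. With 1 library left out they ranged from 19 to 24, 9 to 11, 0 to 11, 6 to 16, 3 to 7, 2 to 7, 2 to 11 and 1 to 15, in that order. In that fit of 4 libraries, 21 nuclear OXPHOS genes were called. List medians moved by more than the spread between replicates with library size only (0.44 for cholesterol synthesis, 0.18 for lipogenesis, 0.093 for ER genes) and with no filter (0.18 for lipogenesis). With 1 library left out, the medians ranged from 0.16 to 0.22 for lipogenesis, 0.048 to 0.088 for NRF2 genes and -0.25 to -0.10 for adipocyte genes. No called gene named in the text changed sign under any alternative. Genes at a few CPM rest on few reads, so their absence among the calls is not evidence of no change.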

Other observations

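The lists in this section were drawn up with the values in view, so their counts are descriptions, and they stand against a background of 1.46% of genes called higher and 1.27% lower with A66 (0.631% and 0.542% without). The long-chain acyl-CoA synthetases, which trap fatty acids in cells as CoA esters, moved in opposite directions. Acsl1 fell (-0.44), while Acsl3, the form on the ER and nascent droplets, rose from 83.4 and 82.7 CPM to 109 and 114 CPM (log2 fold change 0.43, adjusted p = 1.83e-06, edgeR) and Acsl4, which prefers arachidonate, from 152 and 154 CPM to 207 and 209.6 CPM (0.45, adjusted p = 3.28e-06, edgeR). The direction was the same without A66, at -0.25, 0.27 and 0.26. Acsl5 was at 0.07 and did not pass the test.

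Of 14 tested genes of cholesterol efflux and LXR, the nuclear receptor that senses oxysterols, 5 were lower and none higher. Without A66, 3 were lower. Abca1, the cholesterol exporter, went from 597 and 589 CPM to 495 and 521 CPM (-0.22, adjusted p = 0.00445, edgeR), and Rnf145, a sterol-regulated ubiquitin ligase, from 75.9 and 69.6 CPM to 47.1 and 51.1 CPM (-0.57, adjusted p = 1.86e-06, edgeR). Abcg1 (-0.23), Apoc1 (-0.40) and Apoe (-0.32) were the other calls. Of 17 alternative settings, Rnf145 lost its call in 1, Abca1 in 3, Abcg1 and Apoc1 in 4 and Apoe in 5.

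All 14 tested genes for receptors and signalling proteins that set lipolysis had negative values with A66, and 8 were called. Without A66, 1 was called, but none of the 14 passed the test of the difference between the effects. The 8 called with A66 were Adcyap1r1 (-0.88), Hcar2 (the niacin receptor, -0.53), Tshr (-0.41), Adrb3 (-0.38), Hcar1 (the lactate receptor, -0.36), Mc2r (-0.26), Arrb1 (-0.25) and Pde3b (-0.23). They include receptors that raise cyclic AMP (Adrb3, Tshr, Mc2r) and receptors or enzymes that lower it (Hcar1, Hcar2, Pde3b). Adcyap1r1 lost its call in 1 of 17 settings, Hcar1 in 2, and the other 6 in 3 or 4 each. Of 23 cytosolic heat shock genes, 6 were higher (Hspa4l, Zfand2a, Hsph1, Hsp90aa1, Dnajb2 and Dnajb4, between 0.19 and 0.38), while the inducible Hspa1a was at 0.08 and did not pass. Hsph1 lost its call in 3 of 17 settings, Dnajb4 in 6 and the other 4 in 1 each. Of 20 cytosolic tRNA synthetases, 7 were higher and 19 had positive values. Eprs lost its call in 1 of 17 settings, and the other 6 in 3 to 6 each.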
